A study of Mus musculus with 3 samples.

Results

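Immediate early genes are switched on within minutes of a stimulus, before any new protein has to be made. The 10 genes described here are Fos, Fosb, Jun, Junb, Jund, Egr1, Atf3, Ier2, Dusp1 and Zfp36, a list drawn up by name for this work, and all 10 of them were found among the 31053 genes of the raw files. They were followed in single-cell RNA of 3 whole tumors from TH-MYCN mice, over the 5650 barcodes that the authors kept, in order to see which cell classes carry transcripts of activation or of handling during dissociation. Every mouse was heterozygous for the transgene, in which the tyrosine hydroxylase promoter drives MYCN, and there was no treated or control group and 1 tumor per mouse. Tumors 1, 2 and 3 came from mice aged 62, 79 and 63 days. They were minced, digested for 30 minutes at 37 °C in 150 µg/mL Liberase TL and 150 µg/mL DNase, passed through a 70 µm strainer and loaded on the 10x Chromium 3′ v3.1 system, which tags each captured molecule with a unique molecular identifier (UMI). No sample was digested without warming, so transcripts made in the tumor and transcripts made during the digestion cannot be told apart here.

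Fos, Fosb, Jun, Junb and Jund encode subunits of AP-1, a transcription factor that binds DNA as a dimer of a Jun protein with a Fos, Jun or Atf partner. Egr1 encodes a zinc finger factor induced by growth factors through serum response factor, and Atf3 encodes a stress-induced factor of the same leucine zipper family. Ier2 is a short nuclear early response gene of less settled function. Dusp1 encodes a phosphatase that switches off MAP kinases, and Zfp36 encodes tristetraprolin, which speeds the decay of cytokine messengers, so both act as brakes on the response. In neutrophils and macrophages these genes are known to follow inflammatory stimuli, and in many tissues they also follow warm enzymatic digestion.

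The promoters of 4 members that differed between neutrophil-like cells and the other classes are printed to show the cAMP response type of element that early response genes often carry. Sequences are the 250 bases before the RefSeq start site in GRCm38.p6, on the strand of the gene, and capitals mark TGACG on either strand, the core bound by CREB and ATF dimers. For Dusp1 the last 47 bases are left out, because GENCODE M21 places them in an exon. It also places 7 printed bases of Atf3 in an exon, and the only TGACG of Atf3 lies 3 to 7 bases before the RefSeq start, within them.
Fos (chr12:85473640-85473889, + strand): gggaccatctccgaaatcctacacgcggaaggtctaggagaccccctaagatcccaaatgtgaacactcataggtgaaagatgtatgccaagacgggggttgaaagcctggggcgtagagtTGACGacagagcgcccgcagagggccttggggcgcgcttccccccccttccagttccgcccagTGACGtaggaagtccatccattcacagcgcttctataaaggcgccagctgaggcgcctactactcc
Junb (chr8:84978749-84978998, - strand): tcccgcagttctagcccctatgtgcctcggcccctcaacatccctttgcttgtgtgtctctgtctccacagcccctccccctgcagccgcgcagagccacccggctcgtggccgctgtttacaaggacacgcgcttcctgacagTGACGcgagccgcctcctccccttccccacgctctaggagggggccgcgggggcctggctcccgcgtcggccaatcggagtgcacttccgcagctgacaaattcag
Atf3 (chr1:191183334-191183583, - strand): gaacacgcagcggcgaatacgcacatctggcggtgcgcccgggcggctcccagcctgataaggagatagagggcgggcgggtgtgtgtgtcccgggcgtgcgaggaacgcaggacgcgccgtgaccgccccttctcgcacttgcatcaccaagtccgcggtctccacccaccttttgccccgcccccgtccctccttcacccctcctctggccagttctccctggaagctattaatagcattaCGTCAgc
Dusp1 (chr17:26508520-26508722, - strand): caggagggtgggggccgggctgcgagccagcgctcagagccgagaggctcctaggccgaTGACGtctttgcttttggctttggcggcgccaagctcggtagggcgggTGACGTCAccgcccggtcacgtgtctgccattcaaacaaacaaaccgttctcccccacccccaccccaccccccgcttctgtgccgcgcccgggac

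RefSeq gave a promoter for 8 of the 10 members, with none for Egr1 and Ier2. TGACG stood in the 250 bases of 5 of these 8 (Fos, Fosb, Junb, Atf3 and Dusp1), and in 17.8% of the 32851 promoters of the table. The full palindrome TGACGTCA, which contains TGACG on both strands, was found in Dusp1 alone, and in 1.55% of all promoters. The AP-1 motif TGANTCA, read on both strands, was in 0 of the 8 against 6.75% of all. A CArG box, the site of serum response factor, was found in Zfp36, and in 1.47% of all promoters. In Fos the matches lay 62 to 66 and 125 to 129 bases before the start. These matches describe letters in a window and were not tested for binding.

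Cells were clustered with the 10 members and the related lists held out, and clusters were named from fixed markers, so that the members played no part in the classes. The classes were tumor-like, macrophage-like, neutrophil-like, T cell-like, B cell-like, plasmacytoid dendritic-like, endothelial-like, CAF-like (cancer-associated fibroblast), plasma cell-like, NK cell-like, erythroid-like and mesothelial-like cells. The kept barcodes numbered 1914, 1221 and 2515 in tumors 1, 2 and 3, with medians of 4282.5, 1594 and 1816 UMIs. Tumors 1 and 2 shared 3 kept barcodes and tumors 2 and 3 shared 1. UMIs were summed per tumor and class where at least 10 cells were present, which gave 28 sums over 12 classes, with all 3 tumors in 6 of the classes. Levels are given as UMIs per 1000000 UMIs of the sum (CPM) after TMM scaling, a factor per sum that evens out the bulk of genes. Plain CPM, without that factor, is given for some values, and the order of classes can differ between the scales. As UMIs are counted at the 3′ end, levels are compared between cells for 1 gene and not between genes.

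RNA of tumor cells was present in the sums of the other classes, and far more so in tumors 2 and 3 than in tumor 1. The 14 tumor markers summed to 4914, 5061 and 5252 plain CPM in tumor-like cells of tumors 1, 2 and 3. In neutrophil-like cells they reached 2.48%, 36.5% and 49.5% of that level, in macrophage-like cells 1.37%, 28.6% and 33.7%, and in endothelial-like cells 4.74%, 21.5% and 32.2%. In T cell-like cells of tumors 2 and 3 the share was 56.1% and 83.2%, in B cell-like cells 63.9% and 74.4%, and in plasma cell-like cells of tumor 3 it was 98.9%. The labels of those lymphoid sums in tumors 2 and 3 therefore stand for mixtures as far as RNA goes. Of the 12 neutrophil markers, S100a8 stayed close to its own class and did not exceed 0.741% of its neutrophil-like level elsewhere. Retnlg and G0s2, on the same list, were among the top genes of a subcluster of 63 macrophage-like cells.

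Among sums of at least 10 cells, neutrophil-like cells carried the highest summed level of the 10 genes in each of the 3 tumors. The sum was 41806, 11106 and 7587.8 CPM in tumors 1, 2 and 3 (mean 20167 ± 18823 SD, n = 3), and 17580, 9558 and 9855 on the plain scale. Junb and Dusp1 had the largest means in it (6654.5 and 4605.3 CPM), so the lead rests in large part on these 2 genes. On the plain scale in tumor 2, Junb and Dusp1 gave 3031 and 1369 of the 9558 CPM in neutrophil-like cells. In endothelial-like cells of that tumor they gave 1006 and 677.6 of 7892, so without them endothelial-like cells lay higher there. With TMM factors the neutrophil-like cells of tumor 2 stayed just above. The full order of classes without these 2 genes was not worked out. Macrophage-like cells came to 7845.1, 5351.7 and 3761.2 CPM in the same tumors (5652.6 ± 2058.5 SD, n = 3), and tumor-like cells to 927.8, 2094.3 and 1020.3 (1347.5 ± 648.45 SD, n = 3). Among these 3 classes the order was the same in every tumor. The mesothelial-like cells of tumor 1 and the endothelial-like cells of tumor 2 lay between the neutrophil-like and macrophage-like cells of their tumor. The TMM factor of the neutrophil-like sums was 0.428, 0.878 and 1.32, so the step between tumor 1 and the other tumors depends on the scale. Smaller groups of stromal cells were higher still in tumors 2 and 3. On the plain scale, 8 CAF-like cells of tumor 2 held 18420 CPM (exact 95% Poisson interval 17280 to 19610), 5 mesothelial-like cells of tumor 2 held 17800 (16870 to 18760) and 6 mesothelial-like cells of tumor 3 held 12450 (11420 to 13550), against 9558 (9045 to 10090) and 9855 (8956 to 10820) in neutrophil-like cells of tumors 2 and 3. The intervals cover counting error only, and these cells were too few for the sums used in the comparisons unless stated.

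**Figure D1:**
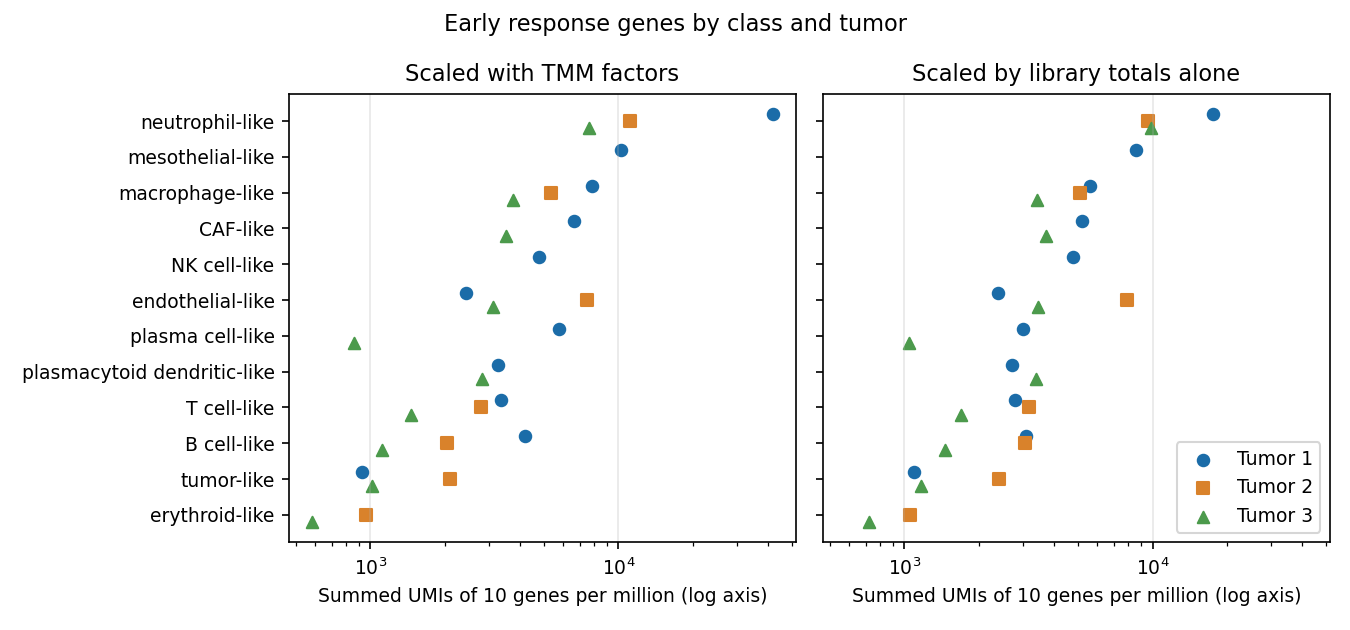
Each point is the summed level of the 10 genes in 1 class of 1 tumor, in CPM on a log axis, with TMM factors at left and without them at right, for sums of at least 10 cells; classes are ordered by their mean at left. Among these sums neutrophil-like cells lead in each tumor, from 7587.8 to 41806 with TMM factors, and tumor-like and erythroid-like cells lie lowest by mean.

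By mean summed level the other classes followed as mesothelial-like (10239 CPM, 1 sum), macrophage-like (5652.6), CAF-like (5067.4 ± 2162.4 SD, 2 sums), NK cell-like (4785.6, 1 sum), endothelial-like (4342.3 ± 2728.2 SD), plasma cell-like (3305.6), plasmacytoid dendritic-like (3036.6), T cell-like (2547 ± 978.56 SD), B cell-like (2451.1 ± 1587.1 SD), tumor-like (1347.5) and erythroid-like (774.12). The ranges of neighbors in this order overlapped, except between the mesothelial-like sum and the macrophage-like sums below it. The plasma cell-like mean joins 5748 CPM in tumor 1 with 863.33 in tumor 3. Its tumor 1 sum is of doubtful identity. It held 79 cells, with a median of 783 UMIs, and the plasma cell-like cluster at a higher resolution held 24 cells of that tumor. With TMM factors the lowest neutrophil-like value, 7587.8, lay under the single mesothelial-like value and the highest macrophage-like value. On the plain scale the lowest, 9558, lay above the mesothelial-like (8567), endothelial-like (at most 7892) and macrophage-like sums (at most 5596).

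Among the AP-1 subunits, Junb set the neutrophil-like sums apart from the other sums of at least 10 cells and Jun did not. Junb reached 14096, 3522.4 and 2345.3 CPM in neutrophil-like cells of tumors 1, 2 and 3, 1324.1, 915.4 and 775.8 in macrophage-like cells and 129.2, 109.6 and 54.4 in tumor-like cells. All 3 neutrophil-like sums lay above each of these sums of the other classes, on both scales. Such separation of neutrophil-like sums held for 2 of the 10 members, Junb and Dusp1, and for 2.06% of all genes tested (2.55% on the plain scale). It did not hold once sums of 5 to 9 cells were added, an alternative chosen after seeing the data. The 8 CAF-like cells of tumor 2 then had 3233.9 CPM of Junb against 2583.7 in neutrophil-like cells of tumor 3, and the 5 mesothelial-like cells of tumor 2 had 1581.2 CPM of Dusp1 against 1549.5 in neutrophil-like cells of the same tumor. Jun stood at 1272, 350.5 and 482.9 CPM in neutrophil-like cells and at 1261.3, 559.2 and 725.7 in macrophage-like cells, groups that overlap. On the plain scale Jun was lower in neutrophil-like cells in each tumor, with overlapping ranges of 301.7 to 627.2 and 534 to 899.7. Its highest level was in the mesothelial-like cells of tumor 1 (1764.9), and its next mean in plasmacytoid dendritic-like cells (1029.4), with neutrophil-like cells sixth.

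Fos reached 4367.7, 1855.3 and 724.3 CPM in neutrophil-like cells and 1217.4, 1013.2 and 559.2 in macrophage-like cells. The neutrophil-like value of tumor 3 lay below the macrophage-like values of tumors 1 and 2, but within each tumor the neutrophil-like cells were higher. Fosb, the close relative of Fos, was instead lower in neutrophil-like cells (316.3, 59.8 and 69.0 CPM) than in macrophage-like cells (194.9, 306.0 and 116.4) in tumors 2 and 3. On the plain scale Fosb was lower in neutrophil-like cells in each tumor, with 51.5 to 133 against 105.8 to 292.1. Its highest level was again in mesothelial-like cells (917.2), with 556.4 and 137.0 in CAF-like cells of tumors 1 and 3 and 480.7 in endothelial-like cells of tumor 2. Jund, which is known as the more constant Jun gene, ran from 620.8 to 2708.8 CPM in neutrophil-like, 467.1 to 916.3 in macrophage-like and 358.3 to 748.0 in tumor-like cells. On the plain scale the mesothelial-like sum of tumor 1 lay above the neutrophil-like mean for Fos (1882 against 1458) and Jund (1167 against 1146).

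The factors outside the Fos and Jun families also stood high in neutrophil-like cells. Egr1 was at 2594.4, 607.0 and 413.9 CPM there, against 100.1, 280.9 and 103.4 in macrophage-like and 37.5, 177.9 and 66.2 in tumor-like cells. It was above the macrophage-like level in every tumor. CAF-like cells of tumors 1 and 3 (657.4 and 449.0 CPM) and the mesothelial-like cells of tumor 1 (872.4) were also high in Egr1. Atf3 was at 898.4, 196.6 and 275.9 CPM in neutrophil-like cells and at 439.7, 283.4 and 174.6 in macrophage-like cells, and of the other sums only the mesothelial-like one (262.4) and that of endothelial-like cells of tumor 2 (179.1) came within this range. Ier2 reached 1517.6, 701.1 and 258.7 CPM in neutrophil-like cells and 412.6, 233.2 and 187.5 in macrophage-like cells. On the plain scale the neutrophil-like means of Egr1 (716.9) and Ier2 (525.8) lay below the mesothelial-like sum of tumor 1 (729.8 and 549.7). For Ier2 the NK cell-like sum of tumor 1 was higher still (669.4).

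Both brakes of the response had their highest mean level in neutrophil-like cells. Dusp1 was at 10536, 1590.2 and 1690.0 CPM, above every other sum of at least 10 cells, with macrophage-like cells at 1141.9, 556.7 and 323.3 and tumor-like cells at 79.2, 41.2 and 30.6. Zfp36 was at 3499.6, 487.3 and 707.0 CPM in neutrophil-like and at 836.6, 531.6 and 328.1 in macrophage-like cells, so the classes overlapped and tumor 2 ran the other way. In tumor-like cells Zfp36 was close to absent, at 36.1, 2.4 and 6.4 CPM. Leaving out 37 tumor-like cells of tumor 1 that held few tumor markers (531.7 plain CPM against 5126 in the other tumor-like cells of that tumor) lowered the summed level of tumor-like cells there from 1091 to 915.9 plain CPM.

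**Figure D2:**
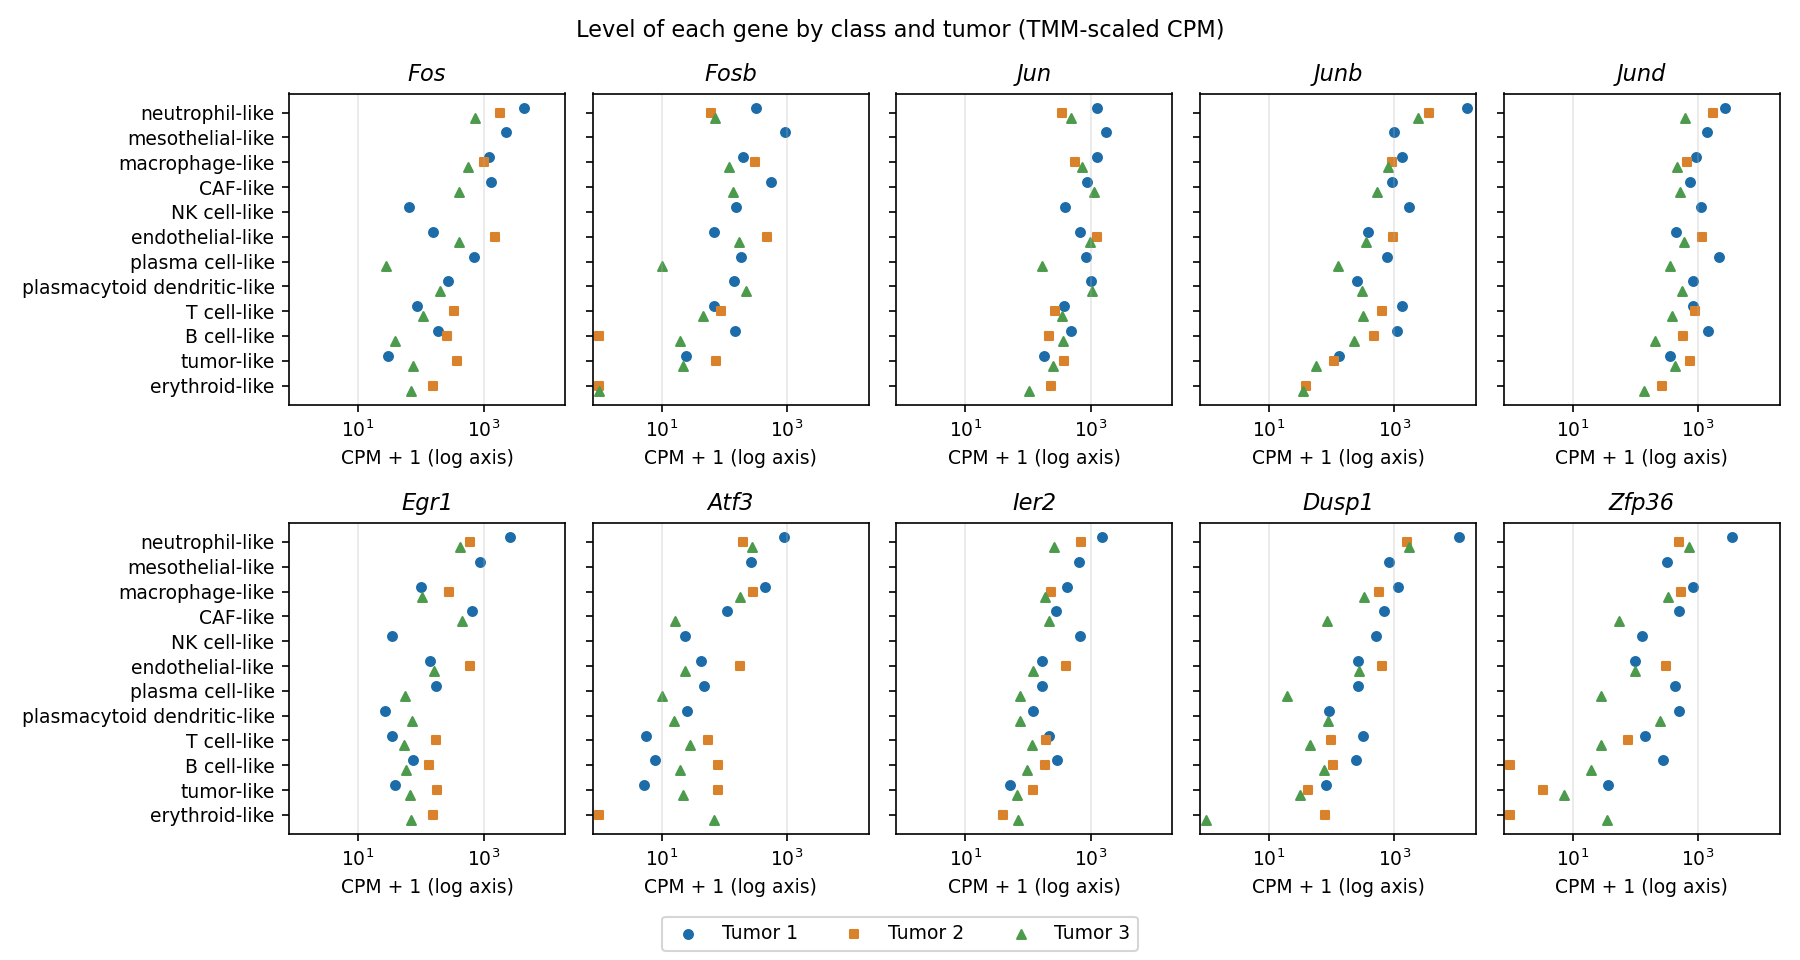
Level of each of the 10 genes by class, as TMM-scaled CPM plus 1 on a log axis, with 1 point per tumor and class of at least 10 cells. Junb and Dusp1 in neutrophil-like cells lie to the right of every other class shown, whereas the Jun points of most classes fall within the same range.

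In the fit over all classes, 7 of the 10 members were higher in neutrophil-like cells than in the mean of the other classes, where 16.3% of the 9418 genes tested were called higher and 0.775% lower. All 10 members passed the filter on low counts. The log2 difference, with its standard error and adjusted p (edgeR quasi-likelihood test, Benjamini-Hochberg), was 4.50 ± 0.54 for Dusp1 (9.56e-07), 3.90 ± 0.43 for Junb (2.45e-07) and 3.56 ± 0.65 for Zfp36 (0.000217). It was 3.26 ± 0.60 for Atf3 (0.000225), 3.17 ± 0.47 for Egr1 (1.74e-05), 2.87 ± 0.60 for Fos (0.000908) and 2.13 ± 0.38 for Ier2 (0.000157). Jund (1.26 ± 0.45, adjusted p = 0.0555) and Jun (0.36 ± 0.40, adjusted p = 0.756) did not pass. For Fosb no difference is given, because both erythroid-like sums held 0 UMIs of it and its fitted value then rests on the prior count. The same limit holds wherever Fosb is counted as called in a class against the other classes over sums of at least 10 cells. The 7 calls held in each of the 15 alternatives tried. Here and below, shares of all genes called are those of the main fit unless stated. Counts of members in an alternative, such as the block, mostly have no such share beside them.

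The scale of these differences can be set against all genes. Over genes with a UMI in every class, the median log2 difference was 3.17 for 9 members and −0.02 for 4106 genes. Leaving out the TMM factors moved the median of all tested genes in this comparison from 0.31 to −0.17, so that member differences are read relative to that median. The tumor markers named above moved between the tumors in neutrophil-like cells, and so did the 15 macrophage markers, which summed to 3404, 1766 and 1075 plain CPM there against 20310, 18680 and 16350 in macrophage-like cells. In tumor 1 the tumor markers in neutrophil-like cells were at 2.48% of their tumor-like level, on the plain scale. On that scale the members summed to 17580 CPM in neutrophil-like and 1091 in tumor-like cells of tumor 1. With TMM factors these sums were 41806 and 927.8 CPM, so the size of the gap depends on the scale. The part of these admixtures in the differences was not tested.

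Against macrophage-like cells alone, neutrophil-like cells were higher in 2 of the 10 members, where 3.3% of genes were called higher and 2.2% lower. These were Egr1 (log2 difference 2.92 ± 0.81, adjusted p = 0.0335) and Junb (2.73 ± 0.74, adjusted p = 0.0294). Dusp1 had as large a difference with a wider error (2.77 ± 0.93, adjusted p = 0.0855). Since the classes of 1 tumor come from the same mouse, the fit with each tumor as a block is the paired one, and it added Ier2 (1.48, adjusted p = 0.0154) and Dusp1 (2.51, adjusted p = 0.000738) for 4 in all. Fos (1.32 ± 0.97), Atf3 (0.64 ± 0.90), Jun (−0.26 ± 0.54) and Fosb (−0.38 ± 0.88) did not pass. Without tumor 2, without tumor 3 or on the authors' adjusted counts 0 members passed, and Egr1 passed neither without tumor 1 (1.53) nor without TMM factors (2.33). The split of all calls here was 311 higher to 207 lower, 366 to 89 with DESeq2 and 294 to 425 without TMM factors.

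**Figure D3:**
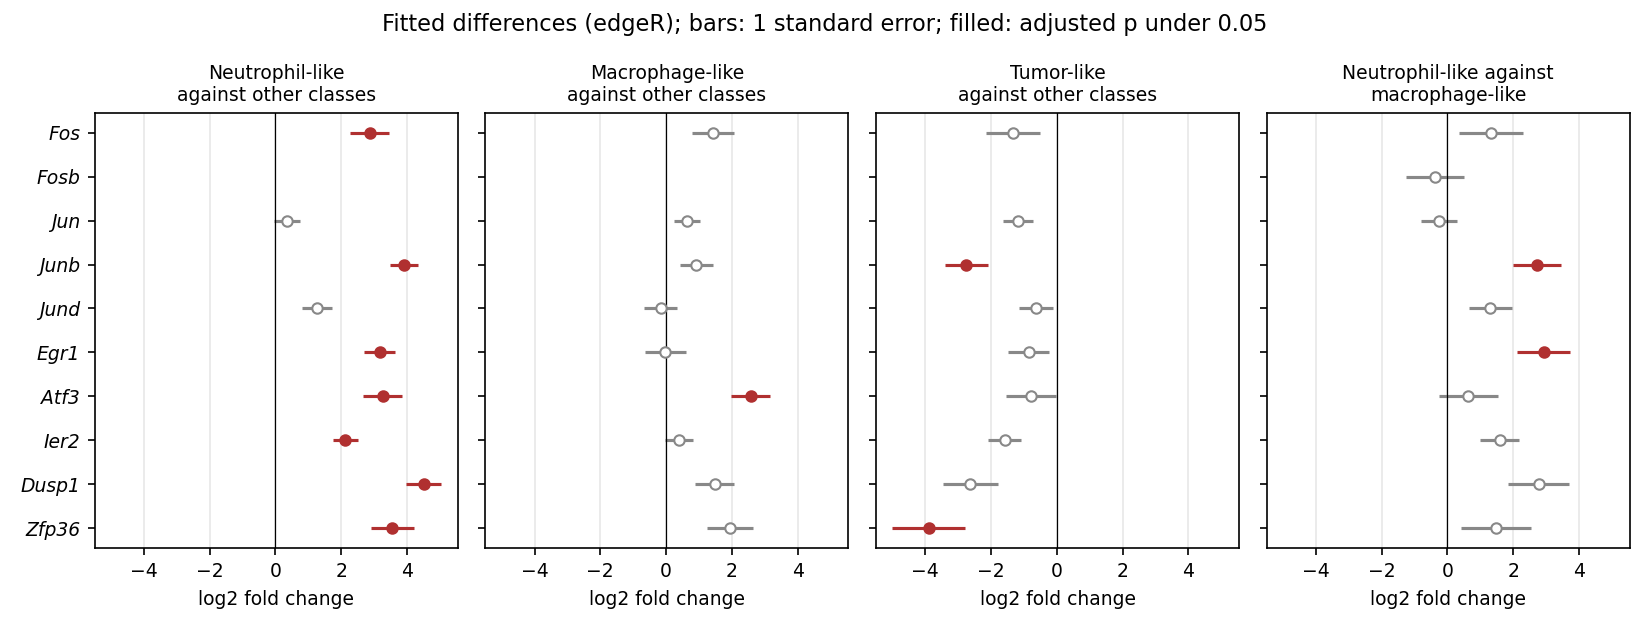
Log2 differences of each gene in 4 comparisons, with bars of 1 standard error; filled red points passed an adjusted p of 0.05. Fosb is left out where the reference holds a class with 0 UMIs. Neutrophil-like cells have 7 filled points on the positive side against the other classes and 2 against macrophage-like cells, and tumor-like cells 2 on the negative side.

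Macrophage-like cells were higher than the mean of the other classes in 1 of the 10 members, Atf3 (2.57 ± 0.60, adjusted p = 0.00441), where 10.8% of genes were called higher. Zfp36 (1.95 ± 0.70, adjusted p = 0.0824), Dusp1 (1.48 ± 0.60, adjusted p = 0.138) and Fos (1.43 ± 0.65, adjusted p = 0.213) did not pass. With each tumor as a block, Zfp36, Junb, Fos and Dusp1 joined Atf3 for 5 members, and without tumor 1 there were 6. DESeq2 called 0 of them (Atf3 adjusted p = 0.0566). Macrophage-like cells held 50.9%, 18.7% and 25.2% of all member UMIs of tumors 1, 2 and 3, from 48.8%, 15.2% and 13% of all UMIs, while neutrophil-like cells held 18.3%, 11.4% and 4.76% from 5.60%, 4.96% and 0.856% of all UMIs.

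Subsets of macrophage-like cells were named from marker lists and compared over 9 sums. Apoe+-like cells, whose list holds Apoe, C1qa and Mrc1, had summed levels of 5169.8, 7615.3 and 3284.1 CPM. Ccr2+-like cells, with Ccr2, Ly6c2 and Vcan, had 8435.1, 5462.9 and 7862.2, and Pecam1+-like cells, with Pecam1, Cd300e and Ace, had 6724.7, 5925.0 and 4969.1. The ranges of all of them overlap. The Ccr2+-like sums held 204, 11 and 10 cells in tumors 1, 2 and 3, so small differences could not be shown there. Subclusters of 77 and 63 macrophage-like cells had no name and were left out. Of the 307 Apoe+-like cells, 142 form a shallow cluster with none of the subset's markers among its top genes, and there the tumor markers came to 275.28, 3498.9 and 3916.1 plain CPM in tumors 1, 2 and 3, against 60.314, 620.43 and 1089.3 in the other Apoe+-like cells. The 10 members summed to 1036, 2572 and 1062 plain CPM in that cluster and to 4179, 7713 and 3470 in the other Apoe+-like cells. None of the 10 members passed in any subset against the others, where 6.62% (Apoe+-like), 0.368% (Ccr2+-like) and 3.59% (Pecam1+-like) of 3537 genes were called in either direction. At an unadjusted p under 0.05 there were 2, 0 and 2 members, and DESeq2 called 0 in each. With each tumor as a block, Fosb was higher (1.40, adjusted p = 0.00527) and Ier2 lower (−1.26, adjusted p = 0.00187) in Apoe+-like cells, and Fosb was lower (−1.16, adjusted p = 0.0352) and Ier2 higher (0.81, adjusted p = 0.0275) in Pecam1+-like cells. Fosb reached 246.5, 594.9 and 172.2 CPM in the Apoe+-like and 119.2, 119.7 and 13.9 in the Pecam1+-like sums, higher in the first in every tumor. Ier2 went the other way in every tumor, with 158.8, 269.3 and 112.7 against 516.8, 404.0 and 368.9. Without the shallow cluster, an alternative chosen after seeing the data, the block again called Fosb (1.67, adjusted p = 0.00368) and Ier2 (−1.17, adjusted p = 0.00782) in Apoe+-like cells, and of the Pecam1+-like calls Fosb alone (−1.34, adjusted p = 0.0323).

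CAF-like cells were higher in 1 member, Egr1 (1.93 ± 0.58, adjusted p = 0.0251), where 13.3% of genes were called higher. The block added Fos (1.65, adjusted p = 0.0245) and Fosb for 3 members, DESeq2 called 0, and Egr1 passed neither without tumor 1 (adjusted p = 0.0986) nor without tumor 3 (adjusted p = 0.168). With sums of at least 5 cells, a choice made after seeing the data that brings in tumor 2, 4 members were higher in 3 sums, namely Egr1 (3.06 ± 0.48, adjusted p = 8.56e-06), Fos (2.51 ± 0.56, adjusted p = 0.00102), Jun (1.68 ± 0.39, adjusted p = 0.00147) and Fosb.

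Mesothelial-like cells entered the main comparison as 1 sum, the 16 cells of tumor 1. That fit called 4 members higher (Fos, Egr1, Jun and Fosb), where 9.09% of genes were called higher, but with a single sum its spread was taken from the other classes, so the calls say nothing of the spread between mice. With sums of at least 5 cells, also chosen after seeing the data, there were 3 of them, of 16, 5 and 6 cells, and 7 of the 10 members were higher, where 13.6% of 5931 genes were called higher. On the TMM scale of that fit Egr1 was in the 3 tumors at 948.09, 2771.1 and 1693.7 CPM and Fos at 2444.6, 5385.5 and 2181.3. The differences were 3.47 ± 0.47 for Egr1 (adjusted p = 7.68e-07), 3.48 ± 0.55 for Atf3 (1.19e-05), 3.07 ± 0.53 for Fos (4.46e-05), 2.36 ± 0.36 for Jun (7.63e-06), 2.13 ± 0.44 for Ier2 (0.000546) and 2.05 ± 0.55 for Dusp1 (0.00776), with Fosb the other call. Junb (1.30 ± 0.52, adjusted p = 0.103), Zfp36 and Jund did not pass there, and with the block all 10 did. The share of all genes called with the block is not given here, so that count has no background beside it.

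In endothelial-like cells the 10 genes depended on the tumor. Their summed level was 2423.8, 7465.5 and 3137.5 CPM in tumors 1, 2 and 3, and Fos was at 154.3, 1498.7 and 400.5, highest in tumor 2. Of the 19 endothelial-like cells of tumor 2, 2 held 65.3% of the member UMIs and 36.8% of all UMIs, and without them the plain level fell from 7892 to 4333. In that sum the macrophage markers came to 2162 plain CPM, against 758.1 in tumor 1 and 106.6 in tumor 3, and their part was not tested. With edgeR 0 of the 10 members passed in this class, where 11.4% of genes were called in either direction. At an unadjusted p under 0.05 there was 1, and DESeq2 called 0. Without tumor 1, 6 members were higher, among them Jun (1.54, adjusted p = 9.77e-05) and Dusp1 (2.25, adjusted p = 0.000196). Jun alone was higher without TMM factors (1.04, adjusted p = 0.0204).

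Lymphoid classes gave no call among the members with edgeR. In T cell-like cells (0 of 10, with 1.68% of all genes called in either direction) the summed level ranged from 1465.5 to 3371.1 CPM, and in B cell-like cells (0 of 10, with 2.23%) from 1111.1 to 4203.8. In both, 0 members had an unadjusted p under 0.05 and DESeq2 called 0. Plasma cell-like (1.39% of genes called) and NK cell-like cells (1.66%) also had 0 calls, with 0 and 2 members at an unadjusted p under 0.05. Erythroid-like cells (0.35% of genes called) had 0 calls and 6 members at an unadjusted p under 0.05. For Junb the 3 tumors gave 1299.5, 636.4 and 314.7 CPM in the T cell-like class and 1096.0, 476.5 and 226.0 in the B cell-like class, highest in tumor 1 in both, where the tumor markers were lowest. NK cell-like cells of tumor 1 had 1719.8 CPM of Junb and 673.0 of Ier2. Plasmacytoid dendritic-like cells (0 of 10, with 5.14% of genes called in either direction, 2 members at an unadjusted p under 0.05 and 0 called by DESeq2) combined Jun at 1025.4 and 1033.4 CPM in tumors 1 and 3 with Egr1 at 26.1 and 72.8. Without tumor 1, Jun was higher in this class (1.45, adjusted p = 0.0146).

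Tumor-like cells, the largest class in tumors 2 and 3, had low levels of most members. Lower than the mean of the other classes were 2 of 10, Zfp36 (−3.89 ± 1.10, adjusted p = 0.0375) and Junb (−2.75 ± 0.66, adjusted p = 0.0258), where 0.998% of genes were called lower and 6.7% higher. Ier2 (−1.59 ± 0.50, adjusted p = 0.0521) and Dusp1 (−2.62 ± 0.83, adjusted p = 0.0531) lay just past the threshold, and the block called both, with Fos, for 5 members. The split of all calls was 631 higher to 94 lower, 133 to 1849 with DESeq2, which called 6 members lower, and 1479 to 1463 with rare classes left out of the reference, which also called 6. Without tumor 2 or on the authors' adjusted counts 0 members passed, and without tumor 3 only Junb did (−2.60, adjusted p = 0.0478). In the adjusted counts Fos had 269, 591 and 3 UMIs in tumor-like cells of tumors 1, 2 and 3, against 21, 781 and 322 in the raw counts. Without the 37 cells named above, 4 members were lower.

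Tumor-like clusters differed little within a tumor. Over the 6 tumor-like clusters, the summed plain level ran from 2318 to 2579 CPM in tumor 2 and from 1034 to 1596 in tumor 3. In tumor 1 it ran from 720 to 4714, with a median of 1044, and the highest value belonged to the 37 cells with few tumor markers. Those cells had a median of 635 UMIs and 992.5 plain CPM of macrophage markers, against 256.8 in the other tumor-like cells.

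The share of cells carrying several members was counted after each cell had been thinned to 500 UMIs. In neutrophil-like cells 83.5% (exact 95% interval 78.1 to 88.0), 64.3% (50.4 to 76.6) and 63.6% (40.7 to 82.8) held 3 or more of the 10 genes in tumors 1, 2 and 3. In macrophage-like cells the share was 32.9%, 24.8% and 17.1%, and in tumor-like cells 2.33%, 7.93% and 1.05%. None of the 10 and 12 erythroid-like cells of tumors 2 and 3 did so, which allows shares of up to 30.8% and 26.5%. Without thinning, the mean share was 98.1% in neutrophil-like, 76.3% in macrophage-like and 27.8% in tumor-like cells, which differ in depth. The intervals cover counting error only.

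**Figure D4:**
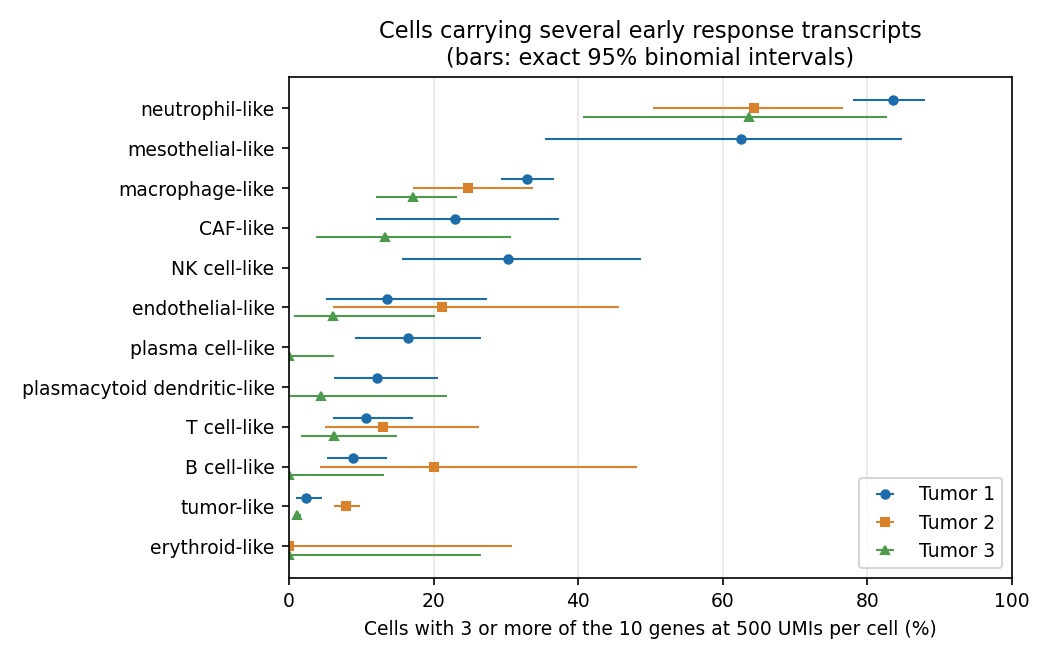
Share of cells in which at least 3 of the 10 genes had a UMI after thinning to 500 UMIs per cell, by class and tumor, with exact 95% binomial intervals as bars. In neutrophil-like cells the share is 63.6% to 83.5%, and in tumor-like cells 1.05% to 7.93%.

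The signal in neutrophil-like cells was spread over the class. The 10% of cells with the most member UMIs held 22.7%, 21.8% and 26.6% of them in tumors 1, 2 and 3, and 13.4%, 11.8% and 15.1% of all UMIs. In macrophage-like cells the top 10% held 34.2%, 52.9% and 37.6% of member UMIs, and 18.2%, 27.1% and 19.8% of all UMIs. The top cells of that class thus also held more of all UMIs than those of the neutrophil-like class. Junb was found in 77.2% ± 5.92 (SD, n = 3) of thinned neutrophil-like cells, Dusp1 in 63.2% ± 19.2 and Fos in 50.5% ± 8.49, while Fosb was found in 2.29% ± 2.58.

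At a higher resolution the neutrophil-like cells fell into a cluster led by Entpd3, Cxcl3 and Il1r2, with 140, 25 and 13 cells in tumors 1, 2 and 3, and a cluster led by Ngp, Retnlg and S100a8, with 96 and 31 cells in tumors 1 and 2 and too few for a sum in tumor 3. In the first the summed plain level was 21610, 11760 and 8587 CPM, and in the second 13880 and 8271. Egr1 was at 1740, 699 and 758.8 plain CPM in the first and at 496.1 and 419.4 in the second, higher in the first in both tumors that hold both. Fos did not follow, with 1787, 1518 and 559 against 1881 and 1643. These values are descriptions without a test.

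The members also differed in which tumor they were highest in. Over the 6 classes with sums from all tumors, Junb, Dusp1 and Zfp36 were highest in tumor 1 in 5 classes each, on both scales. Egr1 was highest in tumor 2 in 5 classes on both scales, Fosb and Atf3 in 4, and Fos in 4 with TMM factors and 5 without. The T cell-like and B cell-like sums of tumor 2 stand for mixtures, as given above. Their Egr1 was at 195.1 and 199.7 plain CPM, against 205 in tumor-like cells of tumor 2. The part of tumor-cell RNA in these counts of classes was not tested. Kept cells of tumor 1 had the highest median depth, and each tumor is 1 library, so mouse, library and dissociation cannot be told apart.

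The other early response genes were taken from a list of known members of the response. In neutrophil-like cells 29 of the 44 tested were higher and 0 lower, against 16.3% of all genes. Among them were Cebpb and Cebpd, factors of the acute phase response, with mean levels of 7189.8 and 651.34 CPM, and the stress kinase gene Plk3 with 809.07 CPM. Over genes with a UMI in every class the median log2 difference of the list was 3.17 (9 genes), against −0.02 for all. In macrophage-like cells 10 of 44 were higher, including Klf4 (2.87 ± 0.55), Sgk1 (3.15 ± 0.63) and Cebpb (3.69 ± 0.99), against 10.8% of all genes. Endothelial-like (11.3% of all genes called higher) and CAF-like cells had 8 each, and both included Cyr61 and Ctgf, matricellular genes driven by mechanical cues and YAP. Ctgf reached a mean of 912.66 CPM in CAF-like and 228.09 in endothelial-like cells.

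Directly against macrophage-like cells, 10 of 44 were higher in neutrophil-like cells and 1 lower, where 3.3% of all genes were called higher and 2.2% lower. Csrnp1 (4.64 ± 1.06, adjusted p = 0.0108), Plk3 (4.15 ± 0.79, adjusted p = 0.0026) and the growth arrest gene Gadd45a (3.97 ± 0.70, adjusted p = 0.00155) were higher. The 1 lower gene was Klf4, a factor of monocyte differentiation (−3.22 ± 0.89, adjusted p = 0.0351). Among subsets of macrophage-like cells, Apoe+-like cells were lower in 5 of 27, against 2.97% of all genes, among them Nr4a1 (−2.37 ± 0.51, adjusted p = 0.0188), a factor needed by patrolling monocytes, Klf2 and Trib1. The Apoe+-like sums here include the shallow cluster described above. No fit without it is given for the genes of this list, or for Hmox1 below. Ier3 was higher in Ccr2+-like (2.72 ± 0.45, adjusted p = 0.0343) and lower in Pecam1+-like cells (−2.85 ± 0.55, adjusted p = 0.0191).

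NF-kB early genes, which encode cytokines and feedback inhibitors, were higher in 14 of 20 in neutrophil-like cells, against 16.3% of all genes, and in 8 of 20 in macrophage-like cells, against 10.8%. The chemokine gene Cxcl2 averaged 10253 CPM in neutrophil-like and 375.58 in macrophage-like cells, and Il1b, the gene of interleukin 1 beta, 12204 and 965.64. Both differed directly (Cxcl2 4.77 ± 1.12, adjusted p = 0.0129, and Il1b 3.66 ± 1.05, adjusted p = 0.0415). Cd83, an activation marker of antigen-presenting cells, was lower in neutrophil-like than in macrophage-like cells (−6.30 ± 1.38, adjusted p = 0.00802). CAF-like cells had 2 of 20 higher, Cxcl1 and Il6, against 13.3% of all genes.

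Of the heat shock genes, which encode chaperones induced by misfolded protein, 1 of 19 was higher in neutrophil-like cells, against 16.3% of all genes, and 1 lower, the latter being Hsph1 (−1.98 ± 0.67, adjusted p = 0.0408). CAF-like cells had 5 of 19 higher, among them Cryab, Hspb1 and Dnajb4, against 13.3% of all genes, and endothelial-like cells 3, including Hspb1 and Bag3, against 11.3%. In macrophage-like cells 1 of 19 was higher, Hspa1a (2.93 ± 0.88, adjusted p = 0.0295), against 10.8%. Tumor-like cells were higher in 2, against 6.7%, Hspd1 (1.41 ± 0.43, adjusted p = 0.0455) and Hsp90aa1 (1.13 ± 0.32, adjusted p = 0.0377).

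Genes of the integrated stress and unfolded protein responses were higher in 3 of 15 in neutrophil-like cells, a share near the 16.3% of all genes, namely Slc7a11, the cystine carrier, with a mean of 1173.6 CPM, Sesn2 and Ddit3. All 3 were also higher than in macrophage-like cells, and Sdf2l1, of the endoplasmic reticulum, was lower there (−3.57 ± 0.94, adjusted p = 0.0252). Macrophage-like cells had 3 of 15 higher (10.8% of all genes), Slc7a11, Nupr1 and Sdf2l1, and tumor-like cells 1, Psat1 (1.66 ± 0.47, adjusted p = 0.0375). Of 9 metallothionein and oxidative stress genes, neutrophil-like cells had 3 higher (16.3% of all genes), Osgin1, Hmox1 and Txnrd1. Macrophage-like cells had 1, the heme oxygenase gene Hmox1, and among the macrophage subsets the Apoe+-like cells held more of it than the others (2.73 ± 0.49, adjusted p = 0.00751).

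The list named AP-1 partners holds leucine zipper genes, of which some encode proteins that pair with Fos or Jun. Its genes were higher in 5 of 13 in neutrophil-like cells, against 16.3% of all genes, and in 6 of 13 in macrophage-like cells, against 10.8%. Jdp2, a repressor of AP-1, averaged 387.25 CPM in neutrophil-like and 43.36 in macrophage-like cells. Kinases and factors upstream of the members were higher in 4 of 17 in neutrophil-like cells (16.3% of all genes), among them Map2k3, Mapkapk2 and Mapk3, and in 4 of 17 in endothelial-like cells (11.3% of all genes), among them the ternary complex factor gene Elk3. In macrophage-like and CAF-like cells 0 of 17 passed with edgeR. T cell-like cells had 0 calls with edgeR in any of these lists. The fitted reference is a mean of log levels, so a gene such as Slc7a11 can be called higher in macrophage-like cells (47.851 CPM) although the plain mean of the other classes (109.27 CPM), which neutrophil-like cells raise, is larger. Such differences also depend on the prior count wherever a class holds 0 UMIs.

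**Figure D5:**
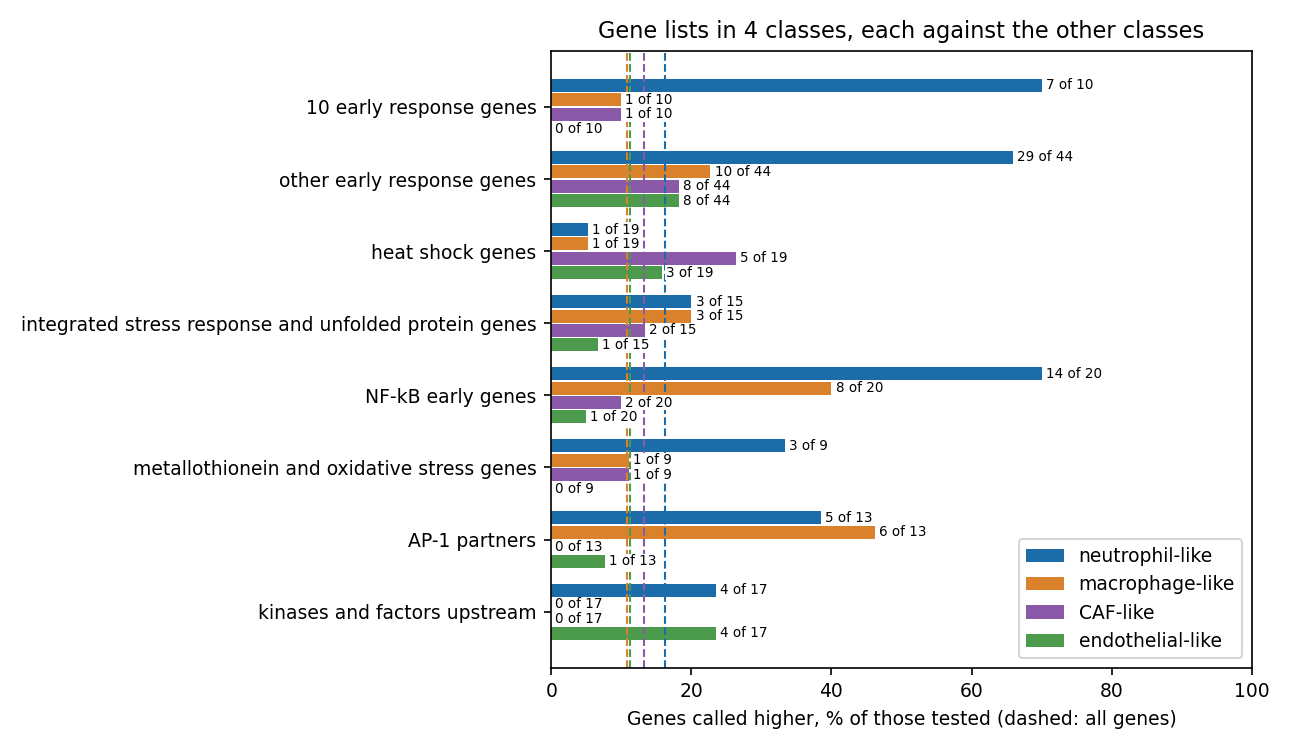
Share of the tested genes of each list called higher in 4 classes against the other classes, with the counts beside the bars; dashed lines show the share of all genes called higher in the class of the same color. In neutrophil-like cells the early response and NF-kB lists exceed the 16.3% line and the heat shock list (1 of 19) does not.

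The levels of the members moved together over the 28 class sums to differing degrees. Across the 45 pairs of members Spearman's rho ran from 0.393 (Egr1 and Zfp36) to 0.946 (Junb and Ier2), with a median of 0.657. Among the 6961 genes compared with the mean log2 level of the members, the most alike were Sbno2 (rho 0.892), Snap23 (0.886), Neat1 (0.875), Rbms1 (0.869) and Klf3 (0.867). Neat1, a nuclear long noncoding RNA of paraspeckles, averaged 2778 CPM in neutrophil-like and 19.34 in tumor-like cells. The sums share 3 libraries and differ in depth, so these values are a description.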

How the data were processed

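Whole tumors of 3 TH-MYCN mice, all of 1 group, were analysed. For each, the authors deposited raw UMI counts per gene and barcode. They also deposited natural log values, which equal the natural log of 1 plus a whole adjusted count. Per-cell totals of these adjusted counts lie within 1921 to 4701 in tumor 1 (500 to 56703 in the raw counts), and 112391 values there are above 0 where the raw count is 0. How they were adjusted is not given in the sources used here. The submitters' processing notes name Cell Ranger 3.1.0, Seurat 3.1.5 and mm10. Deposited log values served to define kept barcodes and in 1 alternative. No doublet caller was run here.

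Clustering used Seurat 5.3.0 under R 4.3.3 (2000 variable genes without 160 listed genes, canonical correlation on 30 dimensions, 20 neighbors, resolution 1). A cluster was named from at least 3 fixed markers with a fold of at least 2 in at least 10% of cells. For each class with at least 10 cells in a tumor, raw counts were added up and fitted with edgeR 4.0.16 (low count filter, TMM, quasi-likelihood), each class against the mean log level of the other classes weighted equally, at an adjusted p of 0.05 over all 9418 genes. Standard errors were derived from the F statistic. The members and lists were chosen with earlier results of these data known. From each list up to 3 genes per direction with at least 50 CPM in the higher group are named, by size of difference; some of these are not reported here. Kept depth was 12628163, 2740537 and 5215401 UMIs; rare classes hold few cells. Classes of 1 tumor share the mouse and are paired: over 102 pairs of sums of the same tumor, deviations from class means correlated at −0.025 to 0.632 (median 0.281), and over 201 pairs of different tumors at −0.575 to 0.387 (median −0.179). For macrophage subsets the ranges were 0.172 to 0.737 and −0.534 to 0.192. Alternatives were DESeq2 1.42.0, no low count filter, each tumor as a block, leaving out each tumor, other clustering resolutions, at least 20 cells, the adjusted counts and no thinning. Fits were tested on simulated data. Promoters are from RefSeq (GRCm38.p6) and exons from GENCODE M21.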

Additional observations from a re-analysis of the deposited data

Results flagged for a closer look

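Barcodes that the authors removed hold transcripts of the 10 genes that none of the comparisons used. Per 1000000 non-mitochondrial UMIs, the summed level in removed barcodes was 4394, 2675 and 1693 in tumors 1, 2 and 3, against 5602, 4397 and 1857 in kept barcodes. The removed barcodes numbered 1343, 3106 and 3523, and mitochondrial genes gave a median of 27.9%, 35.0% and 37.7% of their UMIs. The removed barcodes were of different kinds. In tumor 1, 1056 of them had at least 20% mitochondrial UMIs, with Egr1 at 159.1 against 191.4 in kept barcodes. The other 287, with a median of 0.645% mitochondrial UMIs, had Egr1 at 500.9 and Fosb at 298.7 (177.2 in kept barcodes). Fos and Jun were also higher there than in kept barcodes. Junb (518.3 against 1130), Jund, Atf3, Ier2, Dusp1 (422.2 against 810.5) and Zfp36 were lower, as was the summed level (4806 against 5602). In tumor 2 the 207 removed barcodes under 20% had Egr1 at 347.3 (368.1 in kept barcodes) and Fosb at 147.7 (203.2). In tumor 3 the 272 removed barcodes under 20% had a summed level of 2047 and Zfp36 at 68.87 (66.03 in kept barcodes), while the 3251 with at least 20% had 1623 and 4.628. Removed barcodes have no class here, and the part of cell makeup in these values was not tested.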

How the results depend on the processing

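Of the 177 counts of called members under another setting, 137 stayed within 1.5 times the count given, 11 were lower and 29 higher. The neutrophil-like count was 7 or 8 in all 15 settings, and the T cell-like, B cell-like and Ccr2+-like counts were 0 in every setting tried. With each tumor as a replicate block, which is the paired fit, the count was 5 for macrophage-like, 3 for CAF-like, 5 for tumor-like, 4 for neutrophil-like against macrophage-like and 2 for Pecam1+-like and Apoe+-like cells, and the block changed no other count by more than 1.5 times. DESeq2 gave 0 for macrophage-like, 0 for CAF-like, 6 for tumor-like and 4 for neutrophil-like against macrophage-like cells. Without the low count filter the counts were 4 (macrophage-like), 3 (CAF-like) and 4 (tumor-like), and with at least 20 cells 3 (macrophage-like) and 4 (tumor-like). The lower resolution gave 6 for CAF-like and 1 for tumor-like cells. The authors' adjusted counts gave 2 (CAF-like), 0 (tumor-like), 0 (neutrophil-like against macrophage-like) and 1 (Apoe+-like). Leaving out 1 tumor gave 1 to 6 for macrophage-like, 0 to 6 for endothelial-like, 0 to 1 for plasmacytoid dendritic-like, 0 to 1 for CAF-like, 0 to 3 for tumor-like and 0 to 2 for neutrophil-like against macrophage-like cells. The settings chosen after seeing the data were without TMM factors (2 macrophage-like, 1 endothelial-like, 4 tumor-like, 1 neutrophil-like against macrophage-like, 1 Apoe+-like), rare classes out of the reference (6 tumor-like), without the 37 tumor-like cells of tumor 1 (2 macrophage-like, 4 tumor-like), at least 5 cells in a sum (4 CAF-like), without the shallow Apoe+-like cluster (with the replicate block, 2 Apoe+-like and 1 Pecam1+-like), and without a cluster of shallow cells led by Ccl3 and Ccl4, which moved no count by more than 1.5 times. The causes were not tested. Except where stated, these counts are given without the share of all genes called in the same setting. None of the member differences that passed changed sign, and those that did not pass were not followed.

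On the adjusted counts the mean summed level moved to 6968 CPM (NK cell-like), 3723 (T cell-like), 16400 (mesothelial-like), 3978 (plasmacytoid dendritic-like) and 2653 (tumor-like). It came to 28370 (neutrophil-like), 7223 (CAF-like), 5981 (plasma cell-like) and 3609 (B cell-like), which lie within 1 SD of the values given. Without thinning, the mean share of cells with 3 or more members was 98.1% in neutrophil-like, 93.8% in mesothelial-like, 90.9% in NK cell-like, 84.2% in plasmacytoid dendritic-like, 79.2% in CAF-like, 76.3% in macrophage-like, 72.0% in endothelial-like, 58.4% in B cell-like, 55.5% in T cell-like, 31.0% in plasma cell-like, 27.8% in tumor-like and 24.2% in erythroid-like cells. Over all genes, calls (higher to lower) also depended on the scaling: 1018 to 5 in macrophage-like cells against 445 to 75 with DESeq2, 158 to 0 in T cell-like cells against 191 to 22 with rare classes out and 39 to 4 with DESeq2, and 203 to 7 in B cell-like cells against 259 to 44 and 77 to 10. In subsets they were 12 to 1 against 22 to 18 with DESeq2 (Ccr2+-like), 78 to 49 against 81 to 86 with DESeq2 and 130 to 50 without TMM factors (Pecam1+-like), and 129 to 105 against 129 to 170 without TMM factors (Apoe+-like). DESeq2 also called fewer genes in plasmacytoid dendritic-like (196 to 7 against 472 to 12) and CAF-like cells (653 to 13 against 1255 to 6). With at least 5 cells, where 5931 genes were tested, they were 1571 to 250 against 631 to 94 (tumor-like), 1017 to 88 against 1539 to 73 (neutrophil-like) and 675 to 14 (macrophage-like). Depth limits the rare classes: sums of 10 to 20 cells could not show small differences.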
